A study of Mus musculus with 14 samples.

Results

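The proteasome genes of mouse cerebellar cells were followed over 3 stages on the way to medulloblastoma, a tumor of the cerebellum, with 1 expression array for each of 14 samples. Members were found by gene symbol: every probe set whose single symbol begins with Psma, Psmb, Psmc, Psmd, Psme or Psmf and a digit, with 1 probe set per gene, the one with the highest mean over all arrays. This took in 41 of the 8251 genes that had a probe set with 1 symbol. Of the 41 genes, 2 match by spelling only: Psmc3ip, a recombination cofactor, and Psme3ip1, which is named for binding Psme3. They are described apart, and every count below is over the other 39 genes, 16 of the core particle, 17 of the regulatory particle and 6 assembly chaperones or other activators.

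All mice carried 1 disrupted copy of patched (patched+/-), the gene for the hedgehog receptor, and were bred with 129X1/SvJ mice. Granule cell precursors (GCP, n = 4) came from mice aged 7 days, preneoplastic cells (pretumor, n = 5) from mice aged 6 weeks, and tumor cells (tumor, n = 5) from mice aged 10 to 25 weeks with signs of medulloblastoma. Cerebella were digested with papain and DNase, the cells between the 35% and 65% steps of a Percoll gradient were frozen, and for RNA they were not sorted by FACS. The labels describe a line with a Math1-GFP transgene as well and do not say whether any of these 14 samples carried it. Age and stage changed together between the groups and cannot be told apart. The labels do not state that each sample of a group is a different animal. The p-values below thus rest on a spread among arrays that may be technical.

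The proteasome is the main machine that breaks down proteins in the cytosol and nucleus. Its core particle is a barrel of stacked rings: alpha subunits (Psma genes) form the gated outer rings, and beta subunits (Psmb genes) form the inner rings, 3 of which cut peptide bonds. The regulatory particle caps the barrel. Its ATPases (Psmc genes) unfold the substrate and open the gate, and its other subunits (most Psmd genes) bind ubiquitin chains and remove them. Dividing cells depend on it to clear cyclins and cell cycle inhibitors on time, and neurons to clear damaged proteins.

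Levels are log2 intensities. Of all intensities, 70.5% lay below 16 (log2 of 4), a narrow range of the lowest values that is called the low band here, and a gene is above it when its mean over the 14 arrays reaches that limit. Of the 39 genes, 33 lay above the low band, 14 of the core and 15 of the regulatory particle. The 6 in the low band were Psmb9, Psmb10, Psmc4, Psmd2, Psmd5 and Psmd9. A low-band value gives only a bound, so these 6 probe sets say nothing firm about Psmc4, a subunit that every regulatory particle needs, or about Psmd2, its large scaffold. The median intensity of an array ran from 4.12 to 4.39, and the number of arrays limits the precision. Arrays GCP 3 and GCP 4 lay apart from GCP 1 and GCP 2, and pretumor 3 and tumor 2 apart from the rest of their groups. Results that rest on these arrays are given with and without them.

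Most proteasome genes had a lower mean in pretumor cells than in granule cell precursors, a comparison that sets the preneoplastic stage against the precursors at 7 days. Of the 33 genes above the low band, 31 had a lower mean in pretumor samples, against 53.4% of the 3656 probe sets above the low band. The median difference of the 39 genes was -0.22 on the log2 scale, against -0.01 over all probe sets, and that of the 33 was -0.22 against -0.02. limma, a linear model fitted to each of 12422 probe sets with Benjamini-Hochberg adjustment, called 4 genes at an adjusted p under 0.05, all lower: Psmd13, Psmd6 and Psmd14 of the regulatory particle and Psmb5 of the core. Over all probe sets 2.69% were called lower, and 4.51% of those above the low band, so the share of 4 in 33 lay above this background, with no test that sets the list against it. No proteasome gene was called higher (limma; 0 at an unadjusted p under 0.05), against 1.67% of all probe sets and 3.34% of those above the low band, while 10 of the 33 were lower at an unadjusted p under 0.05. At that unadjusted level 13.9% of the probe sets above the low band were lower and 12.0% higher.

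These calls rest on 4 GCP arrays that fall into 2 pairs. When GCP 1 was averaged with GCP 2 and GCP 3 with GCP 4, so that 2 GCP values entered the fit, limma called 0 proteasome genes in pretumor against GCP (adjusted p = 0.0717 for Psmd13, 0.114 for Psmd6, 0.12 for Psmd14 and 0.142 for Psmb5), with the differences themselves the same and 168 probe sets still called in all. Without GCP 3, GCP 4 or pretumor 2 the count was 2, Psmd13 and Psmd6, and without pretumor 3 and tumor 2 together it was 6.

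**Figure D1:**
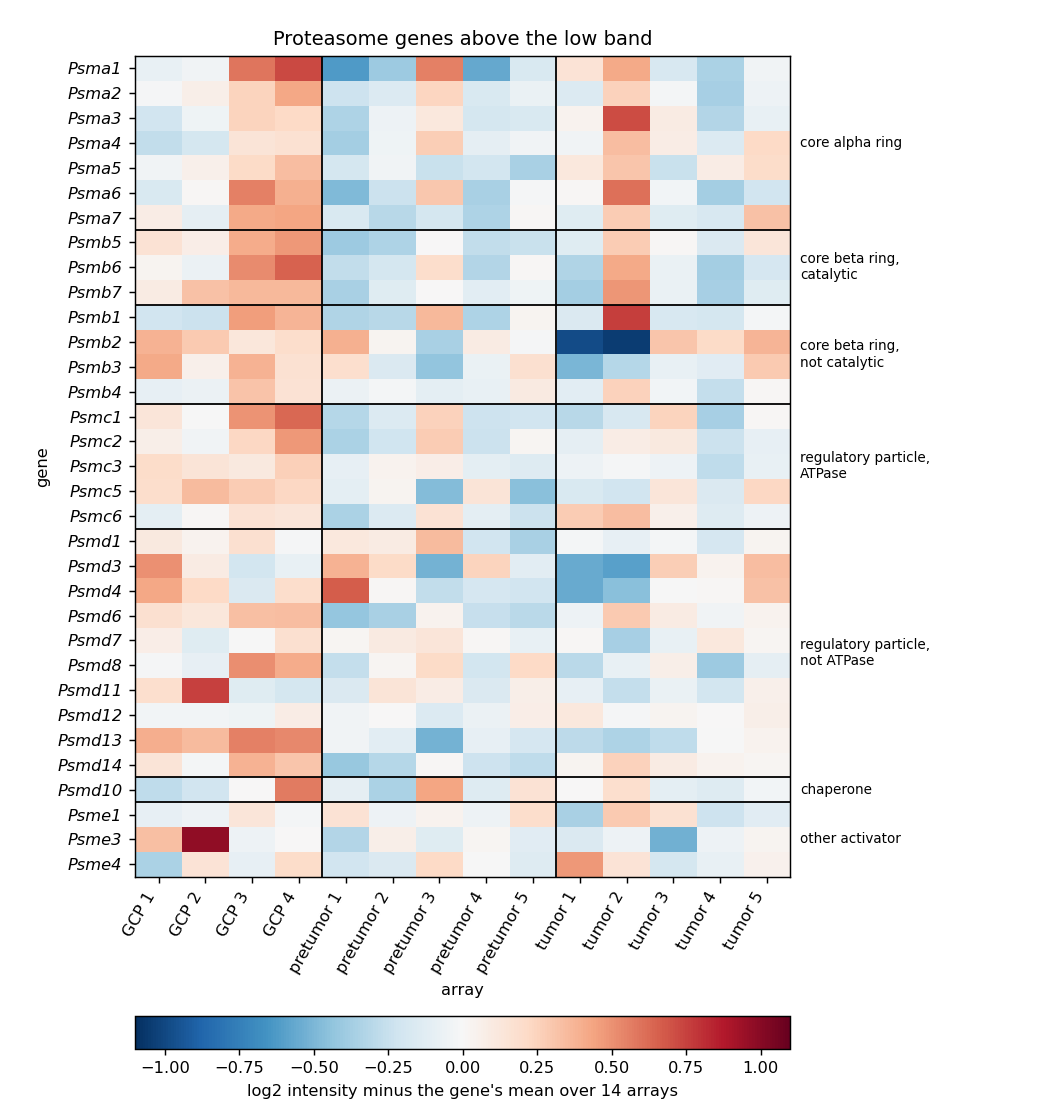
Each row is 1 of the 33 proteasome genes above the low band and each column 1 of 14 arrays; colour gives log2 intensity minus the gene's mean over the 14 arrays, and lines part the 3 groups and the classes of subunit. Core genes are mostly red in GCP 3, GCP 4 and tumor 2 and blue in the pretumor arrays other than pretumor 3, while Psmb2, Psmd3 and Psmd4 are blue in tumor 1 and tumor 2.

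Psmd13, a subunit of the lid, the part of the regulatory particle that removes ubiquitin chains, had the largest called difference. In GCP samples 1 to 4 its log2 intensity was 8.67, 8.62, 8.83 and 8.80. In pretumor samples 1 to 5 it was 8.23, 8.16, 7.75, 8.18 and 8.09, and in tumor samples 1 to 5 it was 7.98, 7.93, 7.99, 8.27 and 8.31. All 10 later samples lay below all 4 GCP samples. Psmd13 fell 1.57-fold in pretumor samples, a log2 difference of -0.65 ± 0.11 (SE, adjusted p = 0.00568), and 1.55-fold in tumor samples, -0.63 ± 0.11 (adjusted p = 0.00589). Both calls held when any 1 of the 14 arrays was left out, and both ended with the GCP pairs averaged (adjusted p = 0.0717 and 0.0709). Tumor and pretumor samples differed by 0.01, with a 95% interval of -0.21 to 0.24.

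Psmd6, another lid subunit, was lowest in the pretumor samples. Its log2 intensity was 10.68, 10.63, 10.83 and 10.84 in GCP samples, 10.08, 10.15, 10.54, 10.25 and 10.21 in pretumor samples, and 10.45, 10.79, 10.59, 10.46 and 10.54 in tumor samples. Pretumor 3, at 10.54, was the only pretumor sample within the tumor range, and no pretumor sample reached the GCP range. Psmd6 fell 1.41-fold in pretumor samples (-0.50 ± 0.10, adjusted p = 0.0116), a call that no single array ended. In tumor samples it differed from GCP by -0.18 (adjusted p = 0.426) and from pretumor by 0.32 (adjusted p = 0.16).

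Psmd14 is the lid's metalloprotease, which cuts the ubiquitin chain off the substrate as it enters the core. Its log2 intensity was 10.04, 9.88, 10.28 and 10.21 in GCP samples, 9.48, 9.59, 9.91, 9.67 and 9.62 in pretumor samples, and 9.93, 10.15, 9.99, 9.94 and 9.92 in tumor samples. The pretumor samples all lay below the tumor samples, by a margin of 9.91 against 9.92, and pretumor 3 overlapped GCP 2. Psmd14 fell 1.36-fold in pretumor samples (-0.45 ± 0.10, adjusted p = 0.0212). That call ended without GCP 3, GCP 4 or pretumor 2 (adjusted p = 0.0706, 0.0729 and 0.0559). The tumor samples differed from pretumor by 0.33 ± 0.09 (adjusted p = 0.145). That difference was called without pretumor 3, as was that of Psmd6.

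Psmb5 carries the chymotrypsin-like active site of the core and is the site that proteasome inhibitor drugs such as bortezomib bind best. Its log2 intensity was 10.95, 10.87, 11.20 and 11.27 in GCP samples, 10.39, 10.45, 10.80, 10.52 and 10.55 in pretumor samples, and 10.66, 11.07, 10.81, 10.63 and 10.93 in tumor samples. Every pretumor sample lay below every GCP sample, and the tumor samples spanned the gap between them. Psmb5 fell 1.45-fold in pretumor samples (-0.53 ± 0.12, adjusted p = 0.0222). The call ended without GCP 3, GCP 4, pretumor 1 or pretumor 2 (adjusted p = 0.0753, 0.0753, 0.0521 and 0.0587) and with replicate numbers as a block (adjusted p = 0.0544). In tumor samples the difference from GCP was -0.25 (adjusted p = 0.324) and from pretumor 0.28 (adjusted p = 0.336). The suffix of this probe set marks probes that may match related transcripts, and the gene's other probe set lay in the low band.

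**Figure D2:**
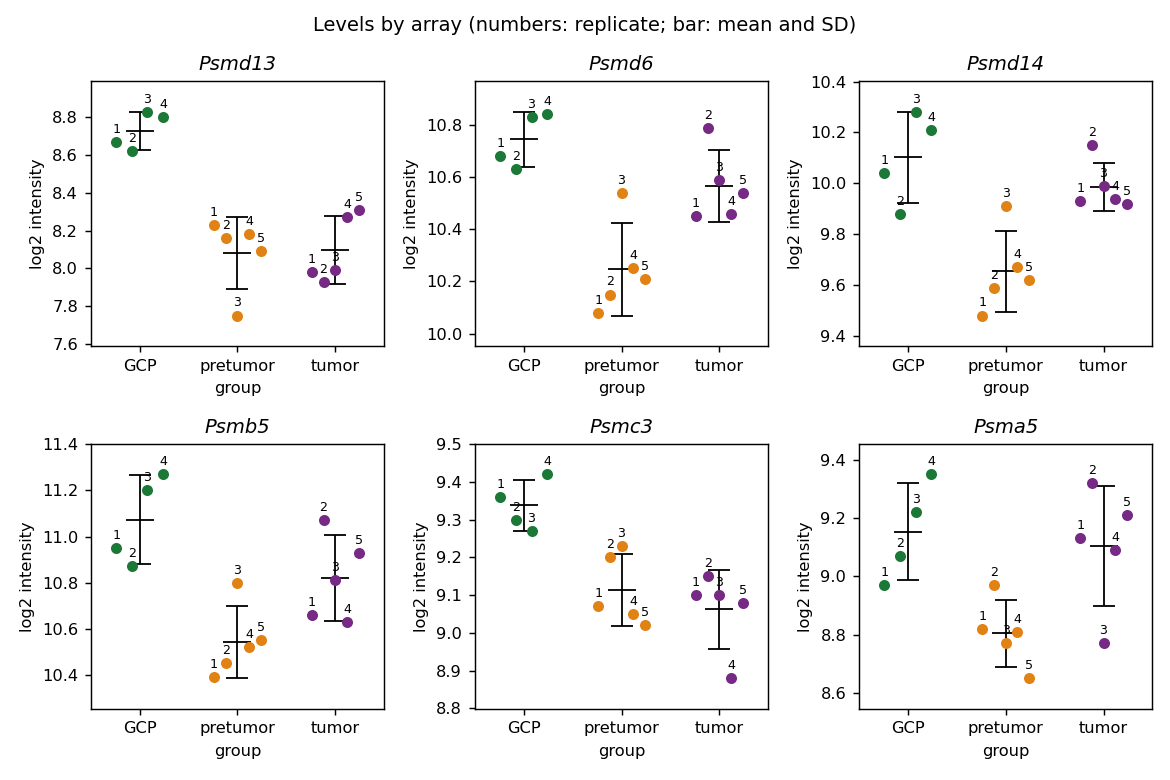
Log2 intensity of 6 proteasome genes by group, 1 point per array with its replicate number; the horizontal mark and bars give the mean and SD (n = 4, 5 and 5). Psmd13 is lower in all pretumor and tumor arrays than in any GCP array, while Psmd6, Psmd14 and Psmb5 are lowest in pretumor arrays, with pretumor 3 the highest of these in each.

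The promoters of the proteasome genes were searched for short motifs as a description. The part of these motifs in the differences between stages was not tested. RefSeq promoter sequences (assembly GRCm38.p6, 250 bases before to 50 after the start of the gene) matched 33 of the 39 genes. Each was searched on both strands for CCGGAA, the core of sites for ETS transcription factors, for CCAAT, and for TGACNNNGC, the core of the antioxidant response element that Nfe2l1 and Nfe2l2 bind. No match overlapped another kind in the stretches below. The ETS core was present in 17 of the 33 promoters, against 36.1% of genes measured above the low band and 16.7% of all genes in the table. In the regulatory particle it was in 10 of 14 promoters (71.4%) and in the core in 4 of 13 (30.8%, below the 36.1%). CCAAT was in 13 of 33 (44.5% of genes above the low band) and the antioxidant response core in 6 of 33 (17.8%), shares near those backgrounds. By particle CCAAT split the other way, with 7 of 13 core and 4 of 14 regulatory promoters. The antioxidant response core was in 2 of 13 and 2 of 14. These shares were not tested. Of the called genes with a promoter in the table, Psmd6 and Psmd13 held the ETS core, Psmd14 held CCAAT and Psmb5 the antioxidant response core. A match is letters in a window and not evidence of binding. The stretches of 60 bases below each end at or before the start of the gene and are read on its strand. They show these matches in capitals for the 4 genes called in pretumor samples. They also show the ETS core for the ATPase Psmc1 and for Psmd11 and Psmd2 of the same particle, within 21 bases of the start. Psmd12 of that particle, not printed, holds it 10 bases from the start, and Psmd2 lies in the low band. Psmc5, Psmc6 and Psmd4, also not printed, hold it farther away, at 89, 94 and 119 bases.
Psmd6 (chr14:14120958-14121017, minus strand): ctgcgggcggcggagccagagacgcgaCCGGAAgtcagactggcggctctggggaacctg
Psmd13 (chr7:140882334-140882393, plus strand): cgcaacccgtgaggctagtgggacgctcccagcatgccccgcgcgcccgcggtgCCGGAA
Psmd14 (chr2:61711507-61711566, plus strand): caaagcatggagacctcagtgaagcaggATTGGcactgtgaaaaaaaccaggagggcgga
Psmb5 (chr14:54618009-54618068, minus strand): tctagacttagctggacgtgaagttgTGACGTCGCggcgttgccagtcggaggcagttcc
Psmc1 (chr12:100110142-100110201, plus strand): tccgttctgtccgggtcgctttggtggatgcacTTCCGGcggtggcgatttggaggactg
Psmd11 (chr11:80428555-80428614, plus strand): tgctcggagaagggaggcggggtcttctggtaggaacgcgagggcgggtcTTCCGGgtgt
Psmd2 (chr16:20651592-20651651, plus strand): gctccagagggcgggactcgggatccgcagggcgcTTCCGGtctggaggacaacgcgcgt

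In Psmd14, Psmc1, Psmd11 and Psmd2 the capitals read the motif on the opposite strand. Promoters with the ETS core belong to genes that differed (Psmd6 and Psmd13) and to genes that did not pass the test (Psmd12 and Psmc6).

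Psma5, an alpha ring subunit, had the next largest difference of tumor from pretumor after Psmd14 and Psmd6 among the genes above the low band. Its log2 intensity was 8.97, 9.07, 9.22 and 9.35 in GCP samples, 8.82, 8.97, 8.77, 8.81 and 8.65 in pretumor samples, and 9.13, 9.32, 8.77, 9.09 and 9.21 in tumor samples. Tumor 3, at 8.77, fell within the pretumor range, and the other 4 tumor samples lay above it. The tumor samples differed from pretumor by 0.30 ± 0.10 (adjusted p = 0.247), and pretumor from GCP by -0.35 ± 0.11 (adjusted p = 0.0993).

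The other alpha subunits lay lower in pretumor samples too, with none called. All 7 alpha genes had a mean difference below 0 in pretumor against GCP, with a median of -0.35 and a range of -0.54 to -0.02. Psma1 showed the largest, from 8.82 ± 0.42 to 8.28 ± 0.47 (SD), with an adjusted p of 0.353. Its samples overlapped: pretumor 3, at 9.07, lay within the GCP range of 8.44 to 9.25. Psma7 went from 11.41 ± 0.26 to 11.00 ± 0.14 (adjusted p = 0.156) and Psma4 from 10.96 ± 0.23 to 10.94 ± 0.23 (adjusted p = 1). In tumor against pretumor all 7 differences lay above 0, between 0.01 and 0.30, and limma called 0 of them, with 1 at an unadjusted p under 0.05.

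The other cutting subunits followed Psmb5 in direction. Psmb7, with the trypsin-like site, went from 10.06 ± 0.13 in GCP to 9.65 ± 0.14 in pretumor samples, a difference of -0.41 (adjusted p = 0.192). These groups did not overlap. Psmb6, with the caspase-like site, went from 10.92 ± 0.35 to 10.53 ± 0.22, a difference of -0.39 (adjusted p = 0.363). In tumor samples Psmb7 stood at 9.68 ± 0.35 and Psmb6 at 10.53 ± 0.32, differences from GCP of -0.38 and -0.39 (adjusted p = 0.242 and 0.374). Psmb7 passed the threshold in both comparisons with GCP without pretumor 3 and tumor 2 together. Of the beta subunits that do not cut, Psmb1 to Psmb4, differences in pretumor against GCP ran from -0.32 to -0.12. Psmb1 is less certain than the rest: its brightest probe set differed by -0.22 (adjusted p = 0.793) and another by 0.20 (adjusted p = 0.379), with pretumor samples above all GCP samples in the latter.

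Psmb9 and Psmb10 replace Psmb6 and Psmb7 in the immunoproteasome, a form of the core made under interferon that yields peptides for MHC class I. Both stayed in the low band on all 14 arrays. The GCP, pretumor and tumor means of Psmb10 were 2.32 ± 0.05, 2.24 ± 0.15 and 2.33 ± 0.10, and those of Psmb9 1.78 ± 0.05, 1.72 ± 0.05 and 1.73 ± 0.05. No difference above the lowest intensities was thus detectable for the inducible subunits. Beside them, 2 of 13 measured interferon and MHC genes were called higher in pretumor and in tumor samples than in GCP. These were H2-Aa and H2-Eb1 of MHC class II, both within the low band. Tap1 and Tap2, the peptide transporter, lay in the low band in all groups. The class I genes H2-K1, H2-D1 and B2m lay above it, with none called. Their differences from GCP were 0.75, 0.37 and 0.63 in pretumor and 0.43, 0.20 and 0.60 in tumor samples. Tapbp, also above it and not called, differed by 0.14 and -0.53.

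Among the ATPases, Psmc3 was the only one called, and only in tumor against GCP. Its log2 intensity was 9.36, 9.30, 9.27 and 9.42 in GCP samples, 9.07, 9.20, 9.23, 9.05 and 9.02 in pretumor samples, and 9.10, 9.15, 9.10, 8.88 and 9.08 in tumor samples. All later samples lay below all GCP samples, by a small margin. Psmc3 fell 1.21-fold in tumor samples (-0.27 ± 0.06, adjusted p = 0.022) and differed by -0.22 ± 0.06 in pretumor samples (adjusted p = 0.0629). The tumor call was lost when GCP 1 (adjusted p = 0.061) or GCP 4 (0.0794) was left out, with the replicate block (adjusted p = 0.0851) and with the GCP pairs averaged (adjusted p = 0.153). Its other probe sets above the low band gave -0.19 (adjusted p = 0.347) and -0.34 (adjusted p = 0.16), and the suffix of the called probe set marks probes shared with similar sequences. The probe sets of Psma3, Psmb4, Psmb7 and Psmd12 carry that suffix too.

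Psmc5 and Psmc1 showed larger differences than Psmc3 with a wider spread. Psmc5 went from 9.49 ± 0.07 in GCP to 9.05 ± 0.28 in pretumor samples (difference -0.44, adjusted p = 0.106), with no overlap, and to 9.19 ± 0.20 in tumor samples. Psmc1, which helps to open the gate of the core, went from 9.18 ± 0.30 to 8.74 ± 0.22 and 8.75 ± 0.25 (differences -0.44 and -0.43, adjusted p = 0.196 and 0.212). Psmc6 stood at 11.67 ± 0.13, 11.48 ± 0.19 and 11.72 ± 0.21. All 5 ATPases above the low band had a lower mean in pretumor than in GCP samples, with a median difference of -0.28.

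None of the remaining lid and base subunits was called. Psmd8, a lid subunit, went from 8.73 ± 0.30 in GCP to 8.53 ± 0.22 and 8.37 ± 0.18, a tumor difference of -0.37 (adjusted p = 0.256). Psmd7, the partner of Psmd14, had means of 6.86 ± 0.13, 6.87 ± 0.08 and 6.78 ± 0.18 in GCP, pretumor and tumor samples, and the 95% interval of its pretumor difference ran from -0.19 to 0.21. Psmd12 stood at 8.61 ± 0.06, 8.58 ± 0.08 and 8.66 ± 0.05, with an interval of -0.12 to 0.06. These intervals leave out a fall of the size seen for Psmd6, for Psmd12 with a probe set that may share probes with similar sequences. Psmd4, a ubiquitin receptor, went from 5.06 ± 0.24 to 4.89 ± 0.39 and 4.75 ± 0.37, a tumor difference of -0.31 (adjusted p = 0.628), and Psmd3 from 6.39 ± 0.31 to 6.35 ± 0.36 and 6.21 ± 0.44, with neither called. Psmd11, an organizer of the lid, went from 9.59 ± 0.43 to 9.43 ± 0.15 and 9.32 ± 0.12, and its other probe set above the low band, from 8.51 ± 0.32 to 8.27 ± 0.31 and 8.18 ± 0.19.

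The assembly chaperones and other activators showed no called difference in the 3 comparisons (limma; of these 6 genes, Psmd9 in pretumor against GCP and Psme3 in tumor against GCP had an unadjusted p under 0.05). Psmd10, known as gankyrin and described as an oncoprotein in liver, had GCP, pretumor and tumor means of 4.81 ± 0.39, 4.79 ± 0.30 and 4.77 ± 0.13. Psme1, a part of the interferon-inducible activator ring, stood at 4.82 ± 0.10, 4.89 ± 0.12 and 4.79 ± 0.27. Psme3, the nuclear activator, went from 6.30 ± 0.48 to 5.89 ± 0.16 and 5.84 ± 0.22 (adjusted p = 0.331 and 0.252), with GCP 2 at 6.96 above the other GCP samples. Psme4, a large single-chain activator, stood at 7.87 ± 0.25, 7.83 ± 0.17 and 7.97 ± 0.26.

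**Figure D3:**
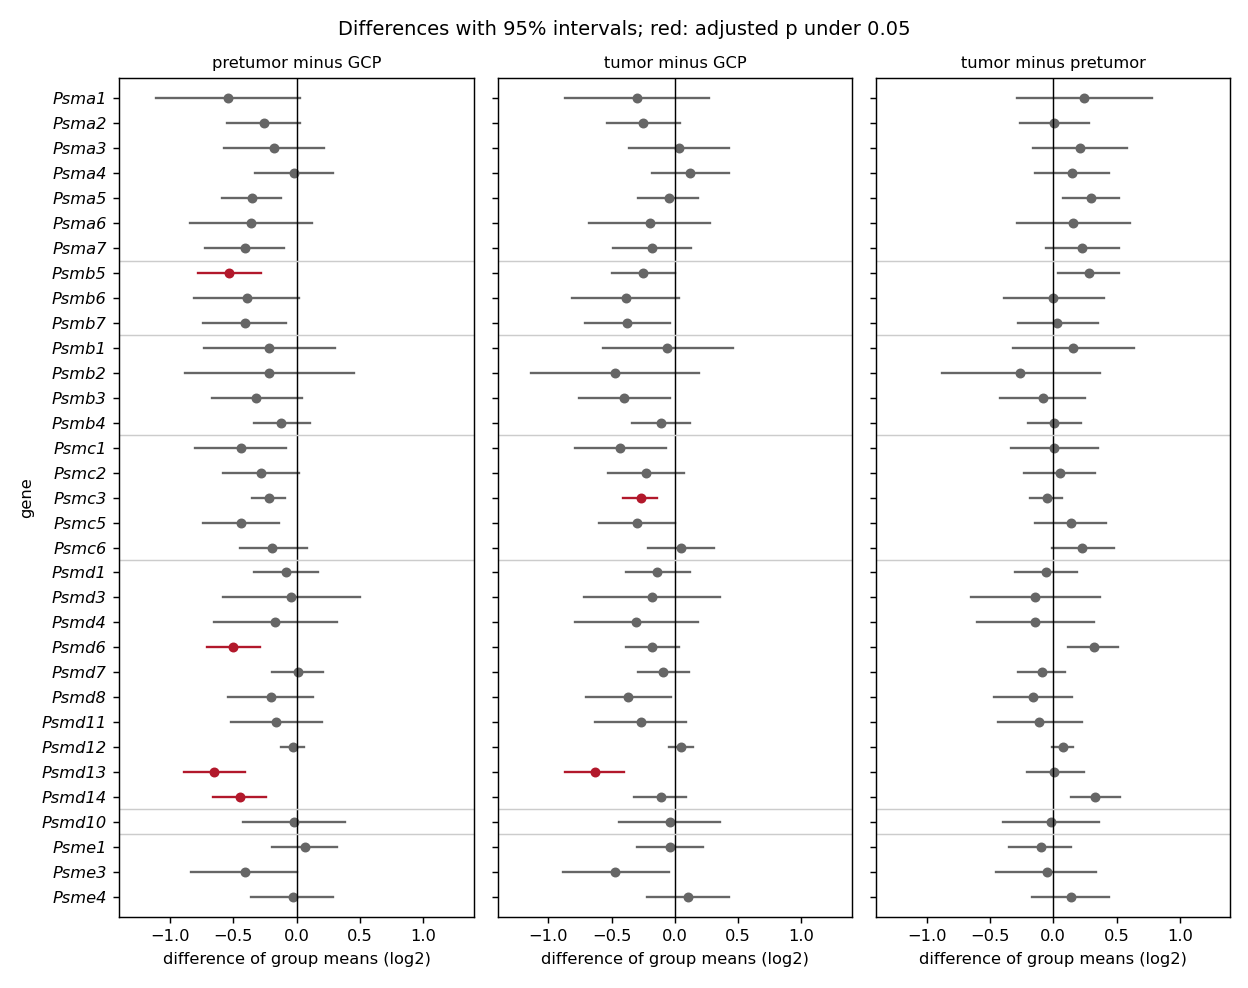
Difference of group means in log2 units with its 95% interval from limma for the 33 proteasome genes above the low band, in the 3 comparisons, with classes in the order alpha ring, catalytic beta, other beta, ATPases, other regulatory subunits, chaperone and activators. Of the pretumor minus GCP points 31 lie left of 0 and 4 are called (red), of the tumor minus GCP points 28 lie left of 0 and 2 are called, and of the tumor minus pretumor points 12 lie left of 0 and 0 are called.

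Against granule cell precursors, tumor cells showed the same tendency with fewer calls. Of the 33 genes above the low band 28 had a lower mean in tumor samples, against 49.8% of the probe sets above the low band, and the median difference was -0.20 against 0.00. limma called Psmd13 and Psmc3 lower and no proteasome gene higher (0 higher at an unadjusted p under 0.05, 9 of 33 lower). These counts take 1 probe set per gene. Another Psmb1 probe set above the low band was higher in tumor samples by 0.24 (limma, unadjusted p = 0.0301, adjusted p = 0.242). Of all probe sets 3.19% were called lower and 1.41% higher, and of those above the low band 5.66% and 3.58%. At an unadjusted p under 0.05 the shares above the low band were 15.6% lower and 12.6% higher. A share of 2 in 33 lies near the 5.66% and is not a result about these genes. With the GCP pairs averaged the count was 0, and without GCP 1 or GCP 4 it was 1, Psmd13. Both comparisons use the same GCP samples, so their values stand side by side and do not support each other.

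From pretumor to tumor no proteasome gene was called in either direction by limma, where 0.209% of all probe sets were called higher and 0.789% lower, and 0.492% and 1.23% of those above the low band. At an unadjusted p under 0.05, 4 of the 33 were higher and 0 lower, against 6.70% and 7.80% of the probe sets above the low band. The 4 were Psmd14, Psmd6, Psma5 and Psmb5. Of the 33 genes 12 had a lower mean in tumor samples, against 46.2% of the probe sets above the low band, and the median difference was 0.01, against 0.02 over the probe sets above the low band. Without pretumor 3, Psmd14 and Psmd6 passed the threshold as higher in tumor samples; without pretumor 3 and tumor 2 together Psmd6 alone did, and with quantile normalisation Psmd14 alone.

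Groups that did not overlap were counted as well. In pretumor against GCP, 7 of the 33 genes lay apart and lower (Psma5, Psmb5, Psmb7, Psmc3, Psmc5, Psmd6 and Psmd13) and 0 apart and higher, against 9.52% and 8.81% of the probe sets above the low band. In tumor against GCP 2 of 33 lay apart and lower, Psmc3 and Psmd13, and 0 apart and higher, against 8.21% and 6.02%. In tumor against pretumor 1 of 33, Psmd14, lay apart and higher and 0 apart and lower, against 1.29% and 2.41%.

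The core and the regulatory particle were then set side by side as the mean log2 intensity of their genes above the low band on each array. For the 15 regulatory genes the mean was 8.74, 8.69, 8.76 and 8.81 in GCP samples 1 to 4, 8.48, 8.53, 8.55, 8.46 and 8.43 in pretumor samples 1 to 5, and 8.44, 8.47, 8.61, 8.46 and 8.63 in tumor samples 1 to 5. Every GCP sample lay above every later sample. The group means were 8.75 ± 0.05, 8.49 ± 0.05 and 8.52 ± 0.09, so pretumor lay 0.26 and tumor 0.23 below GCP. For the 14 core genes the mean was 9.99, 10.00, 10.34 and 10.35 in GCP samples, 9.75, 9.82, 10.04, 9.77 and 9.93 in pretumor samples, and 9.80, 10.25, 9.95, 9.78 and 10.05 in tumor samples. Here pretumor 3, tumor 2 and tumor 5 lay above GCP 1 and GCP 2, so the groups overlapped. The core group means were 10.17 ± 0.20, 9.86 ± 0.12 and 9.96 ± 0.20, a pretumor difference of -0.31 and a tumor difference of -0.21. These means have no test, since the members were chosen with results of these data known. The core mean minus the regulatory mean, a difference between probe sets that only its change between arrays makes readable, came to 1.42 ± 0.17, 1.37 ± 0.11 and 1.44 ± 0.20 for GCP, pretumor and tumor, which overlap.

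**Figure D4:**
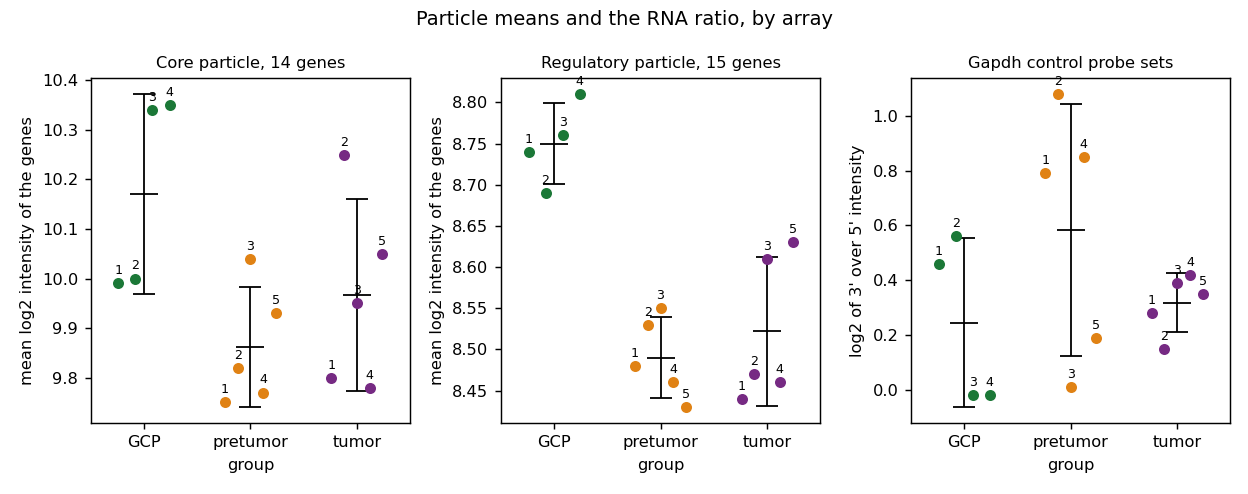
Mean log2 intensity of the 14 core and 15 regulatory particle genes above the low band, and the log2 ratio of 3' to 5' intensity of the Gapdh control probe sets, 1 point per array with its replicate number; marks and bars give mean and SD (n = 4, 5 and 5). The regulatory mean parts GCP (8.69 to 8.81) from all later arrays (8.43 to 8.63), while the core mean overlaps and is highest in GCP 3, GCP 4, pretumor 3 and tumor 2, which have the lowest Gapdh ratio of their groups; the actin ratio, not plotted, is the highest of its group in tumor 2 (4.85).

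Within each group the core genes varied together. GCP 3 and GCP 4 both lay above GCP 1 and GCP 2 for 12 of the 14 core genes and 7 of the 15 regulatory genes, against 33.3% of the probe sets above the low band. Pretumor 3 was the highest pretumor sample for 9 of 14 core and 8 of 15 regulatory genes (41.5% of those probe sets), and tumor 2 the highest tumor sample for 11 of 14 core and 4 of 15 regulatory genes (24.4%). All 3 patterns held at once for 13 of the 33 genes, against 10.7% of the probe sets: Psma1, Psma2, Psma3, Psma4, Psma6, Psmb1, Psmb5, Psmb6, Psmb7, Psmc6, Psmd6, Psmd10 and Psmd14. The patterns were read off these arrays, so the counts are a description. Psmb2 and Psmd3 showed the opposite of all 3. For Psmb2 tumor 1 and tumor 2 stood at 8.01 and 7.95 and the other tumor samples between 9.21 and 9.37.

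The ratio of 3' to 5' signal of the Gapdh control probe sets, a sign of how complete the labelled RNA is, was lowest on the arrays with the highest core means, and that of the actin control probe sets was not. Its log2 value was 0.46, 0.56, -0.02 and -0.02 in GCP samples 1 to 4, 0.79, 1.08, 0.01, 0.85 and 0.19 in pretumor samples 1 to 5, and 0.28, 0.15, 0.39, 0.42 and 0.35 in tumor samples 1 to 5. The arrays with the lowest ratio of each group, GCP 3, GCP 4, pretumor 3 and tumor 2, had the highest core means of each group. Pretumor 5, with the next lowest pretumor ratio (0.19), had the next highest pretumor core mean (9.93). Tumor 1, with the next lowest tumor ratio (0.28), had a core mean of 9.80, below those of tumor 3 and tumor 5. The log2 ratio of the actin control probe sets was 4.02, 4.27, 3.96 and 4.18 in GCP samples, 4.13, 4.87, 4.26, 4.39 and 4.23 in pretumor samples, and 4.51, 4.85, 4.20, 3.99 and 3.93 in tumor samples. By actin, tumor 2 had the highest ratio of its group, and of the 4 arrays GCP 3 alone had the lowest. The Gapdh group means were 0.25 ± 0.31, 0.58 ± 0.46 and 0.32 ± 0.11, with overlapping ranges. The part of either ratio in the differences between stages was not tested.

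Markers of the labelled cells and of other cell types also moved with the stage. In bulk RNA, fewer cells of a type and less RNA per cell cannot be told apart. Of 6 measured granule lineage markers, Neurod1 and Pax6 were called lower in pretumor and tumor samples, and the summed log2 level had a GCP range of 46.10 to 47.68, a pretumor range of 41.89 to 44.94 and a tumor range of 40.61 to 44.81. Zic1, the brightest of the 6, differed from GCP by -0.15 in pretumor and -0.10 in tumor samples (limma adjusted p = 0.621 and 0.794). Zic2 differed by -0.21 and -0.48 (adjusted p = 0.868 and 0.539). The fall of the sum thus came mainly from Neurod1 and Pax6. Atoh1, the defining factor of granule cell precursors, lay in the low band in every group, GCP included, as did Gabra6. Of 9 microglia and macrophage markers 2, Ctss and Lyz2, were called higher against GCP at both later stages (sums of 26.87 to 32.39, 35.57 to 38.07 and 35.09 to 42.61). Aif1, C1qa, Cd68, Cx3cr1 and Ptprc lay in the low band in all groups. Of the others, C1qb differed from GCP by 1.03 in pretumor and 0.82 in tumor samples, and Csf1r by -0.25 and 0.02, with neither called. C1qb lay in the low band in GCP samples and Csf1r in pretumor samples. Of 5 oligodendrocyte markers 3, Mag, Mal and Mog, were called higher in pretumor than in GCP samples (14.07 to 17.64, 19.88 to 26.54 and 13.01 to 16.33 in tumor). Cnp and Mag lay in the low band in all groups, and Mal and Mog in GCP and tumor samples. Mbp, the brightest, differed by 0.25 in pretumor samples (limma adjusted p = 0.755) and was called lower in tumor against GCP (-1.39, adjusted p = 0.00606). In tumor against pretumor 4 were called lower: Mag, Mal, Mbp and Mog. Of 5 endothelial markers 4 were called lower at both stages (16.46 to 19.67, 11.53 to 12.73 and 9.19 to 12.14), all but Cldn5 in the low band throughout. Larger moves were seen in other types. Of 4 astrocyte markers, Fabp7, a radial glia and astrocyte gene, fell by 3.45 in pretumor and by 3.84 in tumor samples, and Aqp4, a water channel, fell by 5.28 in tumor samples, with Aldoc called higher in pretumor and lower in tumor samples (sums of 26.24 to 28.38, 21.16 to 22.46 and 14.37 to 21.53). Aqp4 differed by -2.67 in pretumor samples (adjusted p = 0.0824). Aldoc and Gfap lay in the low band in all groups, and Aqp4 in tumor samples. Gfap differed by 0.47 in tumor against GCP (adjusted p = 0.761). Of 3 interneuron markers Gad1 fell by 2.86 in pretumor and by 4.26 in tumor samples, and Slc32a1 was also called lower at both stages (9.47 to 11.57, 5.89 to 8.50 and 4.76 to 6.13). Slc32a1 and Gad2 lay in the low band in all groups, and Gad1 at both later stages. Of 3 choroid plexus markers Kl rose by 5.04 in pretumor samples and differed by -4.74 in tumor against pretumor samples, where Folr1 was called lower too and Ttr differed by -5.90 (adjusted p = 0.0612; sums of 13.15 to 17.08, 21.17 to 27.88 and 6.34 to 16.23). Kl and Folr1 lay in the low band in GCP and tumor samples. Where a group lies in the low band, the size of a difference is uncertain. Both measured blood markers were called lower in tumor against GCP samples, Hba-a1 by -4.83 and Hbb-b2 by -5.72 (19.77 to 22.16, 17.01 to 21.34 and 4.19 to 15.17). The 4 Purkinje markers lay in the low band in GCP and tumor samples (7.91 to 9.88, 8.62 to 11.92 and 7.82 to 10.40), with Calb1 called lower in tumor against pretumor samples. The part of these cells in the proteasome differences was not tested.

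Other genes of the ubiquitin pathway were measured beside the proteasome, with no test of the lists against each other. Of 38 other measured genes, limma called 2 higher and 1 lower in pretumor against GCP, 0 in tumor against GCP and 1 lower in tumor against pretumor, with median differences of -0.06, -0.03 and 0.04. Uchl1, a deubiquitinase abundant in neurons, fell by 1.24 on the log2 scale in pretumor samples, from 8.29 ± 0.11 to 7.06 ± 0.53 (adjusted p = 0.0356), and stood at 7.34 ± 0.53 in tumor samples. Leaving out any of 6 arrays (each GCP array, pretumor 2 or pretumor 5) took that call away (adjusted p = 0.0666 to 0.103), and so did the fits without pretumor 3 and tumor 2 together (0.0553), with the replicate block (0.0916), with quantile normalisation (0.0573) and with a floor at 16 (0.0854). Mdm2, the ubiquitin ligase of p53, rose by 1.15 in pretumor samples, from 5.63 ± 0.14 to 6.79 ± 0.50 (adjusted p = 0.0226), and stood at 6.56 ± 0.39 in tumor samples. Its call ended without GCP 2, GCP 3, GCP 4, pretumor 2 or pretumor 4 (adjusted p = 0.0527 to 0.0731) and with a floor at 16 (0.0554). Ube2b, a ubiquitin-conjugating enzyme, had a pretumor mean 0.27 above that of GCP (adjusted p = 0.0234) and a tumor mean 0.29 below that of pretumor (adjusted p = 0.0333). The first call was lost when GCP 1 (adjusted p = 0.0737) or GCP 2 (0.0761) was left out, with a floor at 16 (0.0535), with the filter on dim probe sets (0.0851) and with centring on bright probe sets (0.0802), and the second without any 1 of 8 arrays, all 5 pretumor arrays and tumor 2, tumor 3 and tumor 5 (adjusted p = 0.0534 to 0.0749). The second also ended with an intensity trend (0.0629), the groups alone (0.0663), the floor at 16 (0.0851), the filter (0.123) and without pretumor 3 and tumor 2 together (0.108). All 4 calls ended with the GCP pairs averaged.

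Genes that build or induce the proteasome were in that list. Pomp, the maturation factor of the core, went from 8.16 ± 0.32 in GCP to 7.83 ± 0.14 in pretumor and 7.78 ± 0.17 in tumor samples (adjusted p = 0.267 and 0.174). Nfe2l2, a stress factor that can induce proteasome genes, stood at 4.99 ± 0.32, 5.29 ± 0.29 and 5.65 ± 0.41 (adjusted p = 0.642 and 0.144), and Nfe2l1, which restores proteasome genes when the proteasome is blocked, lay in the low band. Psme3ip1, matched by its symbol alone, went from 6.40 ± 0.07 to 6.09 ± 0.12 and 6.19 ± 0.09. Its pretumor difference of -0.31 was called (adjusted p = 0.0169) and was lost when GCP 3 (adjusted p = 0.0557) or GCP 4 (0.0616) was left out, with the GCP pairs averaged (0.143), with quantile normalisation (0.0587), with the filter on dim probe sets (0.0523) and with centring on bright probe sets (0.0755). Psmc3ip stayed in the low band.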

How the data were processed

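The authors deposited linear intensities, 1 for each probe set on each of 14 arrays. Their summary and normalisation methods are not given in the sources used here. Controls (66 probe sets) were left out and 12422 probe sets tested. Intensities under the 10th percentile (2.45) were raised to it before log2, with no further normalisation, since array medians lay within 0.094 log2 units. limma 3.58.1 in R 4.3.3 fitted 3 group means per probe set (lmFit, eBayes; 11 residual and 0.83 prior degrees of freedom), with two-sided p-values adjusted by Benjamini-Hochberg over all 12422 and a threshold of 0.05. Groups follow the labels. By the array's annotation 10833 probe sets had 1 symbol, 396 several and 1193 none, and 2 of those with several name a proteasome activator and were not used. A further gene of the family is not reported here.

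Every proteasome gene could be named. Values in every sample are given for called genes and, where none was called, for the 3 largest differences. Members and lists were chosen with earlier results of these data known. The fit was tested on simulated data, with changes larger than those of the proteasome genes and probe sets that varied independently. That test does not show how well changes of the size seen here are found. Alternatives were a floor or a pseudocount of 16, quantile normalisation, centring, a filter (16 or more on at least 4 arrays), the compared groups alone, a replicate block, an intensity trend, averaged GCP pairs, arrays left out and every probe set counted.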

Additional observations from a re-analysis of the deposited data

Results flagged for a closer look

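Of 105 sets of values examined, the 33 genes above the low band and both particle means in each group, 3 held a sample far from the others of its group, where chance gives about 1 in 20. Psmb1 in tumor 2 stood at 9.50, with the next tumor sample at 8.72 and the lowest at 8.55. Psmb7 in GCP 1 stood at 9.87, below the other GCP samples at 10.10 to 10.13. Psmc3 in tumor 4 stood at 8.88, with the next tumor sample at 9.08 and the highest at 9.15.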

How the results depend on the processing

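Of 28 alternatives, 3 were chosen after seeing the data. Over these the median difference of the 39 genes ran from -0.26 to -0.18 in pretumor against GCP. It ran from -0.23 to -0.11 in tumor against GCP and from 0.00 to 0.07 in tumor against pretumor. The main values were -0.22, -0.18 and 0.01. Each alternative lay nearer to its main value than 0.17, the SD of the members' median level between single arrays of a group. Refits of the same arrays could hardly move a difference of group means by that much, so this is no measure of robustness. That SD was set against the shifts between settings, not against the stage differences. The 4 genes called lower in pretumor samples were 2 with a floor at 16 and 0 with the GCP pairs averaged, and between 2 and 5 with 1 array left out. The 2 called lower in tumor against GCP were 1 with the filter on dim probe sets, with the compared groups fitted alone and with the replicate block, 0 with the GCP pairs averaged, and between 1 and 3 with 1 array left out. In tumor against pretumor 1 gene was called higher with quantile normalisation and 1 without pretumor 3 and tumor 2 together, and between 0 and 2 with 1 array left out. With Psmc3ip and Psme3ip1 counted, 5 were lower in pretumor samples, within 1.5 times the main count. No called gene changed direction under any alternative run. The Psmb5 and Psmd14 calls ended with a floor at 16 (adjusted p = 0.0535 and 0.0518), that of Psmd14 with the compared groups fitted alone (0.058), and that of Psmc3 with those groups alone (0.0529) and the dim filter (0.0728). The cause was not tested. Replicate numbers were not taken as pairs in the main fit. Of 13 same-numbered pairs 5 had deviations that correlated over 0.1, with a range of -0.35 to 0.58. GCP with pretumor gave 0.36, 0.32, 0.58 and -0.28 for numbers 1 to 4. Arrays with different numbers were not compared, so these values cannot decide whether the numbers pair the samples. The replicate block gave 383 calls in place of 541 in pretumor against GCP, 436 in place of 571 in tumor against GCP and 76 in place of 124 in tumor against pretumor. In the same order a floor at 16 gave 194, 232 and 32 calls over all probe sets and averaged GCP pairs 168, 198 and 69. The groups alone gave 335 and 50 in the last pair of comparisons, leaving out GCP 4 gave 331 and 338 against GCP, and leaving out pretumor 1, pretumor 2 or tumor 4 gave 72, 70 and 70 in tumor against pretumor. Over probe sets bright on every array, array medians differed by up to 0.282 log2 units, and centring on them left the counts of 4, 2 and 0 calls as they were. Intensities near the low band limit the reading of the 6 genes there.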
